A study of Mus musculus with 16 samples.

Results

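The 9 genes followed here are ones that sensory neurons are known for switching on after axon injury, measured in 16 RNA-seq libraries. The set holds 9 of the 22609 gene entries of the count files: the transcription factors Atf3, Jun and Sox11, the cytokine receptor subunit Lifr and its signal transducer Stat3, the growth cone proteins Gap43 and Sprr1a, the small heat shock protein Hspb1, and the endopeptidase-like gene Ecel1. Members were taken by name, and all 9 symbols were present in every file. Each is given as CPM (the usual depth-scaled count, here with the TMM correction of edgeR) and as counts per 1000 counts of 16 sensory neuron markers. The second scale relates a gene to the neuron transcripts of the same library.

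The libraries were prepared from lumbar (L3 to L5) dorsal root ganglia (DRG) of male mice aged 8 to 16 weeks. All mice carried the floxed allele LTbR-fl/fl of Ltbr, the lymphotoxin beta receptor gene. In 8 libraries the mice had that allele alone (fl/fl), and in 8 they also carried a Cre recombinase driven by Nav1.8, the sodium channel of nociceptors encoded by Scn10a (CKO). In each genotype 4 libraries came from mice given paclitaxel (PTX), a microtubule-stabilising chemotherapy drug, at 6 mg per kg in 3 injections 2 days apart, and 4 from mice given vehicle, labelled water. All mice received the fluorescent tracer WGA-488 in the paw on day 16 after the last injection, ganglia were taken on day 18, and WGA-488-positive cells were sorted from the cell suspension. No nerve was cut. The design text gives 3 per group where the labels give 4. No label says that the libraries of 1 group are from different animals. P-values therefore measure the spread between libraries, which may be technical.

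When a peripheral axon is damaged, the cell body of a sensory neuron shifts to a growth state. Atf3 and Jun, basic leucine zipper proteins that pair with each other at AP-1 and CRE sites, are among the earliest genes of that state. Cytokines of the LIF family act through Lifr and gp130 to activate Stat3, and Sox11, Gap43, Sprr1a, Hspb1 and Ecel1 are among the genes that rise in regenerating ganglia. Jun and Stat3 are also used by many non-neuronal cells, and Jun and Atf3 respond to cell stress and tissue dissociation.

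The promoters were searched for letters that Atf3, Jun and Stat3 or their relatives are known to bind (AP-1, CRE and STAT), and for the heat shock element, bound by heat shock factors, which are not members. RefSeq windows of the 250 bases upstream of the start site (GRCm38.p6) were found for 8 of the 9 genes, and Gap43 is named only. Both strands were searched for AP-1 (TGANTCA), CRE (TGACGTCA), STAT (TTCNNNGAA) and heat shock element (GAANNTTC) letters. The 3 windows with a match are printed, with the matched bases in capitals, beside that of Atf3, which has none.
Sprr1a promoter window, chr3:92485882-92486131, strand minus: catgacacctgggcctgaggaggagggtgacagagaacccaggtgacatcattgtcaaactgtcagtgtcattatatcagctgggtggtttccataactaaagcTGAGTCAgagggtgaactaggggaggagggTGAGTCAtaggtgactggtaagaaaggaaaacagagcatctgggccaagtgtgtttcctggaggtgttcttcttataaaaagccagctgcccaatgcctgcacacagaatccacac
Hspb1 promoter window, chr5:135887669-135887918, strand plus: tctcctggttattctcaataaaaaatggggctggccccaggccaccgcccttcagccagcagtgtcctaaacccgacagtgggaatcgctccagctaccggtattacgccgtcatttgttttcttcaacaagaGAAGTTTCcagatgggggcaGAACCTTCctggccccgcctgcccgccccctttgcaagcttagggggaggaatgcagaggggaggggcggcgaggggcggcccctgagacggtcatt
Jun promoter window, chr4:95052223-95052472, strand minus: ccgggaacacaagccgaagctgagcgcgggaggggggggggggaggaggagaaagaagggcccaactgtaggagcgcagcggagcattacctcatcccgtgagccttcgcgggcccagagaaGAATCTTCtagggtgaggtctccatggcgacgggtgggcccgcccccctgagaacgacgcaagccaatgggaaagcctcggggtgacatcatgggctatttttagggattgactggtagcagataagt
Atf3 promoter window, chr1:191183334-191183583, strand minus: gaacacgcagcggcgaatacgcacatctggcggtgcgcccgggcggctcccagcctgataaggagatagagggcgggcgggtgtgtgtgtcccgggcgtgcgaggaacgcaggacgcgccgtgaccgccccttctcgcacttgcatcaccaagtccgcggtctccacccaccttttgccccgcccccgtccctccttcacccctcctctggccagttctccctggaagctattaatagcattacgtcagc
Sprr1a holds 2 AP-1 matches, with first bases at -146 and -116 from the start site. Hspb1 holds 2 heat shock element matches, at -117 and -97, and Jun holds 1, at -128. Of all 32851 RefSeq windows of this length, 6.75% held the AP-1 letters, 1.55% the CRE letters, 7.02% the STAT letters and 6.69% the heat shock letters. No match was found in the windows of Ecel1, Stat3, Sox11 or Lifr. Only the exact letters were counted, so a window without a match may hold variants of them. For instance, the Jun and Sprr1a windows hold tgacatca and the Atf3 window holds ttacgtca, each 1 base from the CRE letters. A match is a run of letters and not a measured binding site.

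Libraries held 7906504 to 11668007 gene counts. They differed in cell type markers. The summed level of the 16 neuron markers was 873 to 4485 CPM in vehicle fl/fl, 8958 to 16590 in PTX fl/fl, 928 to 2900 in vehicle CKO and 6510 to 16160 in PTX CKO, and none of the 16 was at 0 in any group. In these bulk libraries, fewer neurons and less RNA per neuron cannot be told apart. The 12 neutrophil markers summed to 71880 to 230200 CPM in the vehicle libraries, so markers of cells other than neurons were abundant in cells sorted as tracer-labelled neurons. Titles date the PTX libraries to 24 (replicates 1 and 2) or 25 September and the vehicle libraries to 1 (replicates 1 and 2) or 2 October, so treatment and title date cannot be told apart. The 4 PTX libraries of the earlier date stood apart: neutrophil markers summed to 272 to 9998 CPM there against 51320 to 118400 on the later PTX date. The 12 immediate-early genes (Fos, Egr1 and others that rise during dissociation) summed to 1139 to 2026 CPM against 6153 to 8665. Counts over Ltbr did not show the genotype. They averaged 10.6 ± 4.18 CPM (SD, n = 4) in PTX fl/fl and 19.3 ± 9.65 in PTX CKO, and 47.2 ± 3.75 and 54.7 ± 31.2 after vehicle. Every comparison of CKO with fl/fl therefore rests on the labels.

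**Figure D1:**
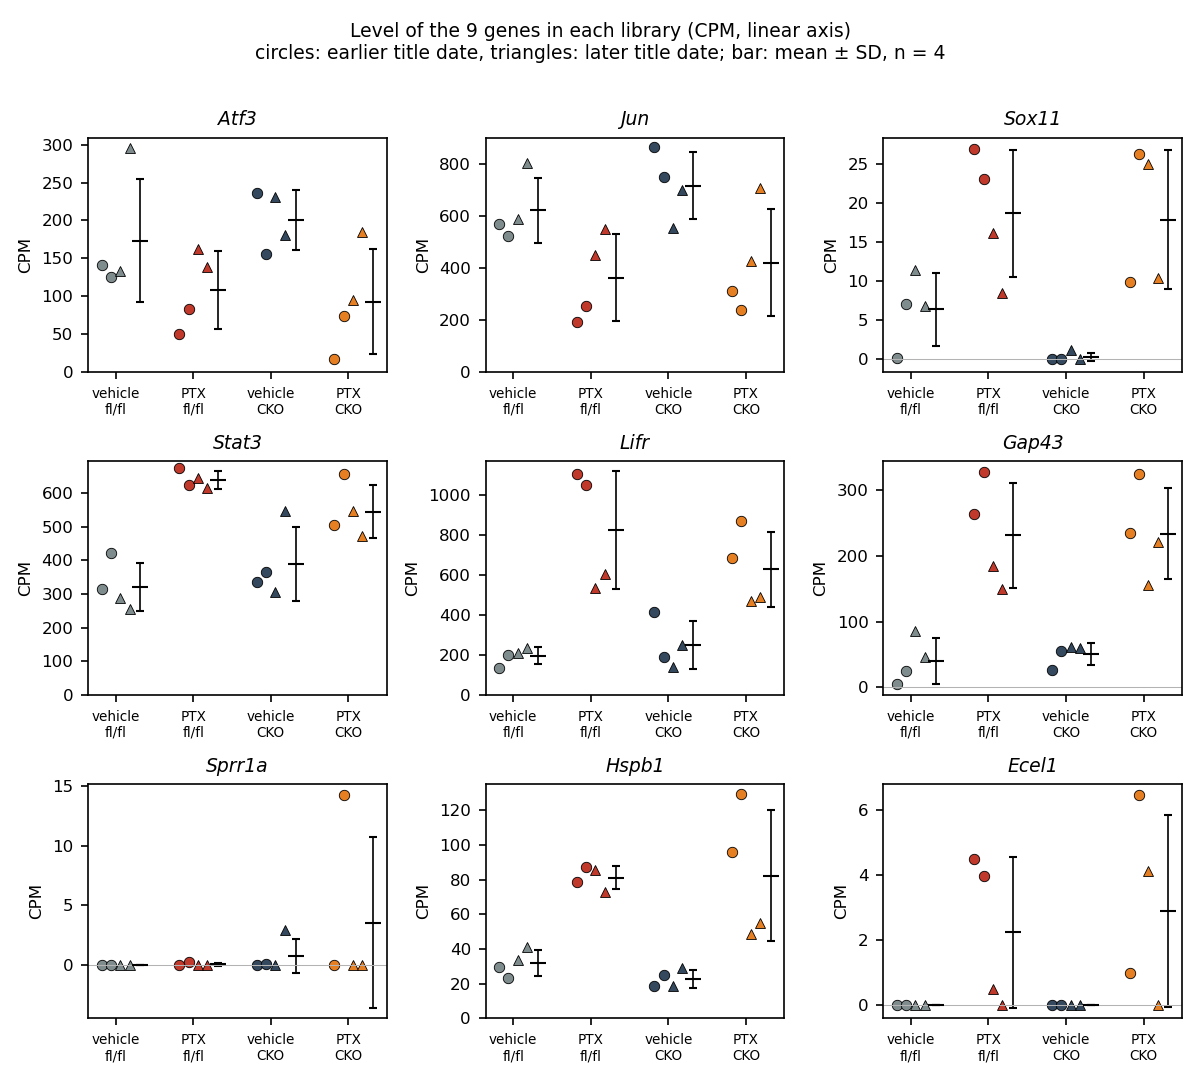
CPM of each gene (y axis, linear) in every library (points) of the 4 groups (x axis), with the mean and SD of 4 libraries beside them. Circles are the earlier and triangles the later title date of each treatment. Gap43, Lifr and Hspb1 sit higher in every PTX library than in every vehicle library of the same genotype, Atf3 and Jun sit lowest in PTX libraries of the earlier date, and Sprr1a is at or near 0 in most libraries.

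After PTX, Lifr, Stat3, Gap43 and Hspb1 rose in fl/fl, and Sox11 and Hspb1 rose in CKO. By edgeR no member fell. Atf3 and Jun, the factors most often used as injury marks, had lower means after PTX in both genotypes, without passing that test, while limma-voom called both lower in both. That fit called many more genes than edgeR: 5283 of all genes in fl/fl and 2686 in CKO, against 704 and 366. The main test was edgeR's quasi-likelihood F test with Benjamini-Hochberg adjustment over 14200 genes and a threshold of 0.05. Sprr1a did not pass its low-count filter, so 8 of 9 members were tested. In fl/fl, 4 members were called higher where 3.2% of all genes were, and 0 lower where 1.76% were. In CKO, 2 were called higher where 2.22% of all genes were, and 0 lower where 0.359% were. The same 2 comparisons had 4 members each with all PTX libraries above all vehicle libraries, against 11% of all genes in fl/fl and 8.91% in CKO, and 0 with all of them below, against 7.8% and 4.54%. At an unadjusted p under 0.05 there were 6 members in fl/fl and 7 in CKO, in either direction. Of all 14200 genes, 2776 in fl/fl and 2793 in CKO were at that p. The median log2 fold change of the 7 tested members other than Ecel1 was 1.34 in fl/fl and 1.33 in CKO, beside -0.01 and 0.02 for all genes. Without the earlier PTX date, which leaves 2 PTX libraries in each genotype, 0 members passed, and all genes called went from 704 to 4 in fl/fl and from 366 to 0 in CKO. The estimates were then 2.00 for Gap43, 0.95 for Stat3, 1.504 for Lifr and 1.26 for Hspb1 in fl/fl, and 5.78 for Sox11 and 1.17 for Hspb1 in CKO. Without the later PTX date, which also leaves 2 PTX libraries in each genotype, all genes called were 1923 in fl/fl and 2077 in CKO.

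Lifr, the receptor subunit that binds LIF and its relatives, measured 1108, 1051, 537 and 604 CPM in PTX fl/fl replicates 1 to 4 and 137, 199, 212 and 236 in vehicle fl/fl. In CKO it measured 684, 869, 473 and 492 CPM after PTX and 418, 192, 140 and 250 after vehicle. PTX and vehicle did not overlap in either genotype, and the earlier PTX date was the higher one. In fl/fl Lifr rose by a log2 fold change of 2.07 ± 0.36 (SE; edgeR adjusted p = 0.00732), and this call held when any 1 library was left out. Without the earlier PTX date it was 1.504 (adjusted p = 0.209), and without the earlier vehicle date 1.72 (adjusted p = 0.0759). In CKO the difference was 1.33 ± 0.35 (adjusted p = 0.0536). It passed without PTX CKO replicate 3 (adjusted p = 0.0455) or without vehicle CKO replicate 1 (adjusted p = 0.0325), the vehicle library with the highest level.

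Stat3, the transcription factor that Lifr and gp130 activate, measured 673, 622, 642 and 615 CPM in PTX fl/fl and 314, 422, 287 and 256 in vehicle fl/fl. All 4 PTX libraries were above all 4 vehicle libraries, and the spread within PTX was narrow (638 ± 25.8, SD, n = 4). The rise was 1.00 ± 0.24 on the log2 scale (edgeR adjusted p = 0.0246). Leaving out PTX fl/fl replicate 1 or 2, or vehicle fl/fl replicate 1, 3 or 4, ended the call, with adjusted p from 0.0639 to 0.0835. In CKO, Stat3 measured 504, 654, 546 and 473 CPM after PTX and 337, 366, 306 and 547 after vehicle. Vehicle CKO replicate 4 lay within the PTX range, and the difference was 0.48 ± 0.24 (adjusted p = 0.270).

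Atf3 measured 49.9, 82.8, 163 and 138 CPM in PTX fl/fl and 141, 125, 133 and 295 in vehicle fl/fl. In CKO the levels were 17.4, 73.2, 95.5 and 184 CPM after PTX and 236, 155, 232 and 181 after vehicle. Groups overlapped in both genotypes, and the lowest libraries were the 4 of the earlier PTX date. The log2 differences were -0.68 ± 0.52 in fl/fl (edgeR adjusted p = 0.522) and -1.12 ± 0.53 in CKO (adjusted p = 0.249). Without the later PTX date the CKO difference was -2.15 (adjusted p = 0.0268). By limma-voom Atf3 was called lower, at -1.26 in fl/fl (adjusted p = 0.0184) and -2.06 in CKO (adjusted p = 0.0173).

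Jun, the AP-1 partner of Atf3, gave 191, 254, 450 and 549 CPM in PTX fl/fl and 568, 524, 590 and 801 in vehicle fl/fl. In CKO it gave 310, 237, 427 and 709 CPM after PTX and 866, 748, 552 and 700 after vehicle. Replicate 4 of each PTX group reached the vehicle range, and the earlier PTX date was again lowest. The log2 differences were -0.78 ± 0.36 (edgeR adjusted p = 0.241) and -0.77 ± 0.36 (adjusted p = 0.248). By limma-voom Jun was called lower, at -1.39 (adjusted p = 0.000357) and -1.16 (adjusted p = 0.0178). Without the later PTX date Jun fell by 1.47 in fl/fl (adjusted p = 0.0103) and by 1.39 in CKO (adjusted p = 0.0106). The low Atf3 and Jun libraries were those with the low immediate-early gene sums given above, and the part of dissociation in these levels was not tested.

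Sox11, a developmental transcription factor that supports axon growth, was at or near 0 in vehicle CKO. It measured 27.0, 23.1, 16.2 and 8.53 CPM in PTX fl/fl and 0.219, 7.14, 11.4 and 6.82 in vehicle fl/fl, where replicate 3 lay above PTX replicate 4. In CKO it measured 9.94, 26.3, 25.0 and 10.4 CPM after PTX and 0, 0, 1.15 and 0.104 after vehicle, with no overlap. The CKO groups held 707 and 10 counts in all, so the fold rests on the low vehicle libraries. There Sox11 rose by 5.81 ± 1.42 on the log2 scale (edgeR adjusted p = 0.0391), and the call was lost, at adjusted p from 0.0561 to 0.122, without any 1 of PTX fl/fl replicates 1, 2 and 3, PTX CKO replicates 1 and 2 and vehicle CKO replicates 1, 2 and 4. Without vehicle CKO replicate 3, which held most of the 10 counts, the estimate was 8.54. In fl/fl the difference was 1.54 ± 1.16 (adjusted p = 0.509).

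Gap43, a membrane protein of growth cones and a textbook mark of regrowing axons, had the largest fitted fold among the members called in fl/fl. Its levels were 263, 328, 185 and 149 CPM in PTX fl/fl and 4.15, 24.7, 85.6 and 46.4 in vehicle fl/fl. In CKO they were 235, 324, 156 and 221 CPM after PTX and 26.3, 55.3, 61.0 and 60.2 after vehicle. The groups did not overlap in either genotype. In fl/fl Gap43 rose by 2.52 ± 0.60 (edgeR adjusted p = 0.0245). The call was lost without PTX fl/fl replicate 1 (adjusted p = 0.0705) or 2 (0.0787) or vehicle fl/fl replicate 2 (0.0801), and without vehicle fl/fl replicate 3 the estimate was 3.21. In CKO it was 2.21 ± 0.60 (adjusted p = 0.0568), and passed without PTX CKO replicate 3 (0.0493), vehicle fl/fl replicate 1 (0.0142) or vehicle fl/fl replicate 3 (0.0429).

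Sprr1a, a small proline-rich protein that is among the most strongly induced genes after nerve transection, was almost undetected. It had 0 counts in all 4 vehicle fl/fl libraries, 3 counts in PTX fl/fl (all in replicate 2, 0.264 CPM), 150 in PTX CKO (all in replicate 2, 14.2 CPM) and 29 in vehicle CKO (1 in replicate 2 and 28 in replicate 4, 2.92 CPM). Nearly all counts of a group came from 1 library, and no fold is given. A group total of 0 allows up to 3 counts, so a lower level was not detectable at this depth, and intervals and floors of this kind cover counting error only.

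Hspb1, the small heat shock protein HSP27 that protects axotomised neurons, was the 1 member called in both genotypes. It measured 78.6, 87.4, 85.3 and 72.8 CPM in PTX fl/fl and 29.7, 23.3, 33.8 and 41.4 in vehicle fl/fl. In CKO it measured 96.0, 129, 48.9 and 54.9 CPM after PTX and 18.6, 24.8, 18.5 and 29.1 after vehicle. All PTX libraries exceeded all vehicle libraries, evenly over dates in fl/fl and with the earlier date higher in CKO. The rises were 1.34 ± 0.35 in fl/fl (edgeR adjusted p = 0.0373) and 1.85 ± 0.35 in CKO (adjusted p = 0.0158). The fl/fl call was lost without PTX fl/fl replicate 1, 2 or 3, PTX CKO replicate 1, vehicle fl/fl replicate 1, 2 or 3 or vehicle CKO replicate 2 (adjusted p 0.0518 to 0.114). The CKO call was lost without PTX CKO replicate 1 or 2 or vehicle CKO replicate 2 or 3 (0.0524 to 0.0770).

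Ecel1, a neuronal endopeptidase-like protein that is induced in damaged neurons, had 0 counts in all 8 vehicle libraries. After PTX it measured 4.48, 3.96, 0.511 and 0 CPM in fl/fl (104 counts) and 0.985, 6.45, 4.13 and 0 CPM in CKO (118 counts). Replicate 4 of each PTX group was at 0, so the groups overlapped. Against a floor of 3 counts over the 4 vehicle libraries, pooled Ecel1 CPM was at least 33.7-fold higher in fl/fl and 35.9-fold in CKO. These bounds cover counting error only and not the spread between libraries. Ecel1 missed the threshold in both (edgeR adjusted p = 0.125 and 0.133).

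The same genes were then read per neuron marker count, because most of these neuron markers themselves rose: 10 of 16 were called higher in fl/fl and 9 in CKO, and 0 lower in either. The separate list of 10 myelinated-neuron markers did not rise: 0 were called higher, with 2 lower in fl/fl (Ntrk2 and Kcna1) and 1 in CKO (Kcna1). These marker calls are in CPM, where 3.2% of all genes were called higher in fl/fl and 2.22% in CKO, and 1.76% and 0.359% lower. In fl/fl the summed CPM of that list was 326 to 588 in PTX libraries against 1071 to 1458 in vehicle libraries, and in CKO 485 to 916 against 812 to 1406. On this scale no member was called higher. Atf3, Jun and Stat3 fell in both genotypes, and Gap43, Lifr, Hspb1 and Ecel1 did not pass the test. The scale moves the median of all genes to -2.64 on the log2 scale in fl/fl and -2.41 in CKO, so the members are read against that shift. Of all genes 56.1% were called lower and 0.246% higher in fl/fl, and 49% and 0.725% in CKO, beside 3 of 8 members lower and 0 higher in each. The median of the 7 tested members other than Ecel1 was -1.14 in fl/fl and -1.09 in CKO.

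**Figure D2:**
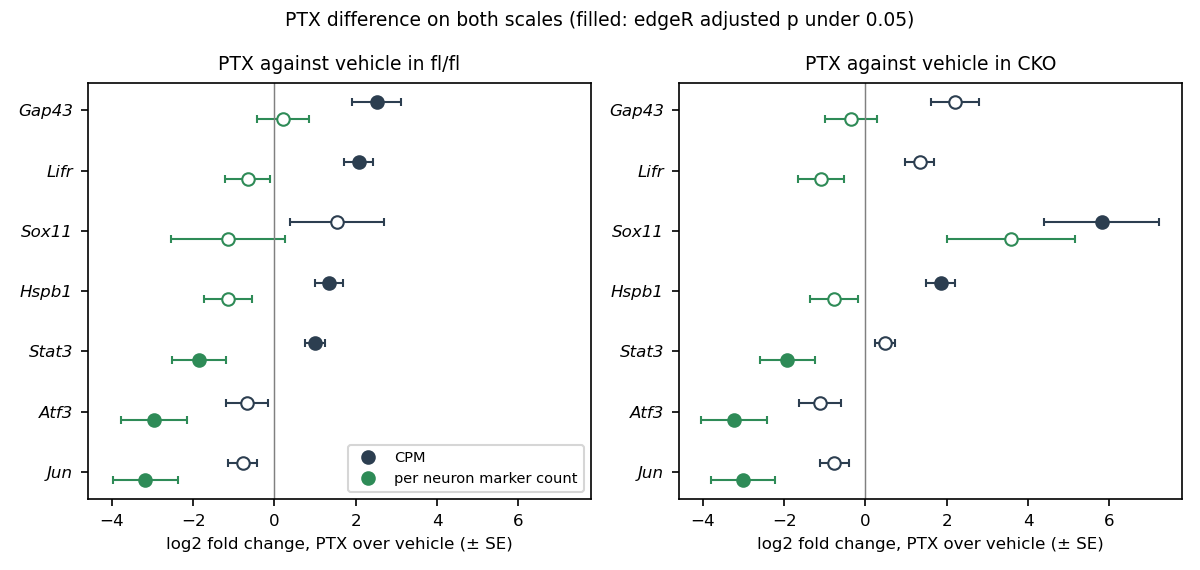
Log2 fold change of PTX over vehicle (x axis, ± SE) for the 7 tested members other than Ecel1 (y axis), in fl/fl (left) and CKO (right). Dark points are CPM and green points are per neuron marker count, and filled points passed the edgeR threshold. Every member lies further left per neuron marker count, and Gap43 moves from 2.52 to 0.21 in fl/fl.

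Atf3 stood at 3.01, 5.51, 17.5 and 15.4 counts per 1000 neuron marker counts in PTX fl/fl and at 77.0, 143, 36.5 and 65.8 in vehicle fl/fl. In CKO it stood at 1.47, 4.53, 13.5 and 28.3 after PTX and at 99.0, 167, 118 and 62.4 after vehicle. The groups did not overlap. Per neuron marker count Atf3 fell, with log2 differences of -2.96 ± 0.80 in fl/fl (adjusted p = 0.00649 by edgeR) and -3.22 ± 0.81 in CKO (adjusted p = 0.00772). The median over all genes was -2.64 and -2.41 on the same scale.

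Jun ranged from 11.5 to 61.3 per 1000 in PTX fl/fl and from 162 to 601 in vehicle fl/fl, and from 14.7 to 109 against 241 to 806 in CKO, with no overlap. It fell too, the differences being -3.18 ± 0.80 (edgeR adjusted p = 0.00463) and -3.01 ± 0.79 (adjusted p = 0.00856). The Atf3 and Jun calls on this scale held without any 1 library, and without PTX CKO replicate 4 the CKO estimates were -4.10 for Atf3 and -3.65 for Jun. Without the earlier PTX date both missed the threshold, at adjusted p = 0.0796 for Atf3 and 0.0757 for Jun in fl/fl and 0.146 and 0.147 in CKO. The estimates were then -2.29 and -2.51 in fl/fl and -2.42 and -2.32 in CKO, and all genes called on this scale went from 7999 to 4 and from 7062 to 0. Without the earlier vehicle date they missed it in fl/fl (0.107 and 0.0644).

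Stat3 ranged from 40.5 to 69.0 per 1000 in PTX fl/fl and from 57.2 to 484 in vehicle fl/fl, where replicate 4 lay inside the PTX range. In CKO it ranged from 40.5 to 77.3 after PTX and from 141 to 394 after vehicle. Stat3 thus rose in CPM in fl/fl and fell per neuron marker count. On the latter scale its differences were -1.85 ± 0.67 in fl/fl (edgeR adjusted p = 0.0261) and -1.92 ± 0.67 in CKO (adjusted p = 0.0254). The median over all genes on that scale was -2.64 in fl/fl and -2.41 in CKO, so Stat3 fell by less than the median gene. The fl/fl call was lost without PTX fl/fl replicate 1 (0.0736) or 2 (0.0754) or vehicle fl/fl replicate 2, the library with the fewest neuron marker counts, where the estimate was -0.90 (adjusted p = 0.183). The CKO call was lost without PTX CKO replicate 1 or 2 or vehicle CKO replicate 2 (0.0717 to 0.0915).

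Gap43 and Lifr, both called higher in CPM in fl/fl, were not called per neuron marker count. Gap43 stood at 15.9, 21.8, 19.9 and 16.7 per 1000 in PTX fl/fl, inside the vehicle fl/fl range of 2.27 to 28.3, and at 19.8, 20.1, 22.1 and 33.9 in PTX CKO, inside the vehicle CKO range of 11.01 to 59.6. The difference was 0.21 ± 0.65 in fl/fl (95% interval -1.06 to 1.47, edgeR adjusted p = 0.787) and -0.35 ± 0.65 in CKO (-1.62 to 0.91, adjusted p = 0.638). Lifr stood at 57.7 to 70.0 in PTX fl/fl and 53.8 to 75.5 in PTX CKO, against 52.7 to 228 and 70.8 to 207 after vehicle. Its differences were -0.66 ± 0.56 (-1.77 to 0.45, adjusted p = 0.310) and -1.09 ± 0.57 (-2.20 to 0.03, adjusted p = 0.108). The intervals hold differences of more than 2-fold, so an equal ratio is not shown.

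Hspb1 per 1000 neuron marker counts was 4.73 to 9.17 in PTX fl/fl and 9.23 to 26.7 in vehicle fl/fl, all lower after PTX, with a difference of -1.14 ± 0.60 (edgeR adjusted p = 0.104). In CKO it was 6.92 to 8.43 after PTX and 7.81 to 26.7 after vehicle (-0.78 ± 0.59, adjusted p = 0.258). Sox11 was 0.836 to 3.53 in PTX CKO and 0 to 0.584 in vehicle CKO, the 1 member with all PTX libraries above all vehicle libraries on this scale, where 0.669% of all genes were in CKO. Its difference was 3.59 ± 1.57 (adjusted p = 0.0619), and it passed without vehicle CKO replicate 3 (6.79, adjusted p = 0.0138), with a nociceptor marker sum (3.90, 0.0364) or with the replicate block (4.42, 0.0493). In fl/fl, where vehicle ranged from 0.119 to 8.19 and PTX from 0.953 to 1.75, it was -1.14 ± 1.41 (adjusted p = 0.484). Pooled over libraries, Ecel1 was at least 7.71-fold higher per neuron marker count in fl/fl and 6.92-fold in CKO against its floor. These bounds cover counting error only, and Ecel1 missed the threshold in both (edgeR adjusted p = 0.0618 and 0.0583). Groups did not overlap, lower after PTX, for 3 members in fl/fl (Atf3, Jun, Hspb1) and 3 in CKO (Atf3, Jun, Stat3), where 49.5% and 42.6% of all genes did the same.

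**Figure D3:**
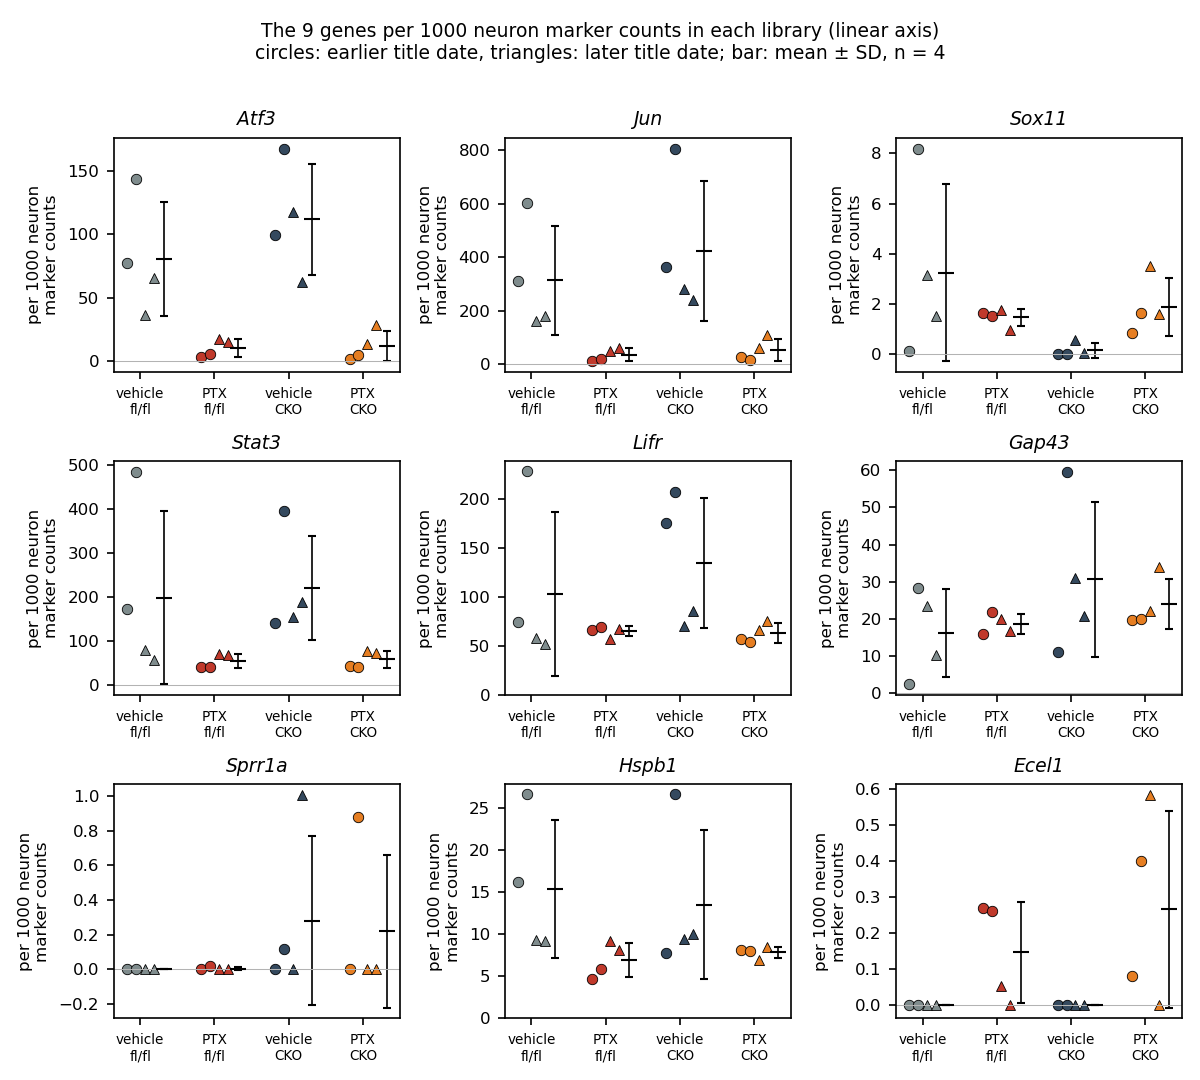
Counts of each gene per 1000 counts of 16 neuron markers (y axis, linear) in every library (points) of the 4 groups (x axis), with mean and SD of 4 libraries. Circles are the earlier and triangles the later title date. Gap43 in PTX fl/fl (15.9 to 21.8) lies inside its vehicle range, while Atf3 and Jun lie below every vehicle library of their genotype.

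Atf3, Jun, Gap43 and Lifr each differed between the 2 PTX dates in the same direction in both genotypes. Atf3 averaged 66.4 CPM on the earlier and 150 on the later date in fl/fl, and 45.3 and 140 in CKO, with no overlap between dates. Gap43 averaged 296 and 167 CPM in fl/fl and 280 and 188 in CKO, also without overlap. Jun averaged 222.5 and 499.8 CPM in fl/fl and 273.5 and 567.9 in CKO. Lifr averaged 1079 and 570.7 CPM in fl/fl and 776.5 and 482.2 in CKO. Neither Jun nor Lifr overlapped between dates. Like Gap43 and Lifr, Hspb1, Sox11, Stat3 and Ecel1 had higher means on the earlier date in both genotypes. Their dates overlapped in fl/fl, in CKO or in both. Hspb1 averaged 83.0 and 79.1 CPM in fl/fl and 112.7 and 51.9 in CKO, and Sox11 25.1 and 12.4 in fl/fl and 18.1 and 17.7 in CKO. Stat3 averaged 647.6 and 628.7 CPM in fl/fl and 579.0 and 509.3 in CKO, and Ecel1 4.22 and 0.255 in fl/fl and 3.72 and 2.06 in CKO. With 2 libraries per date and genotype these are given as values. Neuron markers summed to 11890 to 16590 CPM on the earlier and 6510 to 9304 on the later PTX date, neutrophil markers and immediate-early genes were lower on the earlier one, and their part in the difference was not tested.

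**Figure D4:**
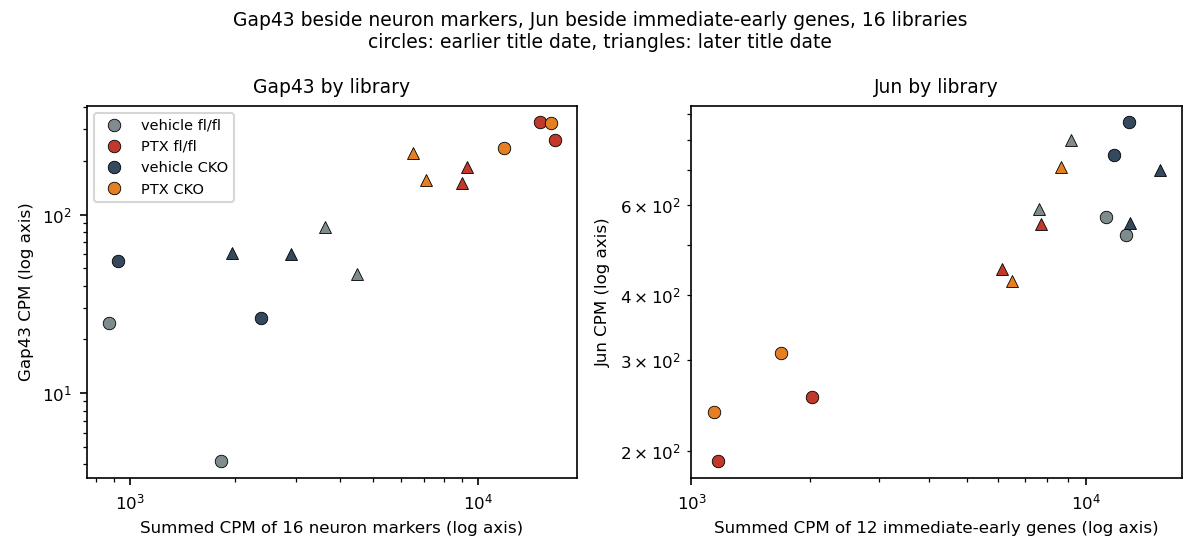
Left, Gap43 CPM (y axis) against the summed CPM of 16 neuron markers (x axis); right, Jun CPM against the summed CPM of 12 immediate-early genes. Both axes are logarithmic, points are the 16 libraries, coloured by group, with circles for the earlier and triangles for the later title date. The 8 PTX libraries lie at the upper right on the left (Gap43 149 to 328 CPM), and the 4 earlier PTX libraries at the lower left on the right (Jun 191 to 310 CPM).

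Whether loss of the receptor in Nav1.8 neurons changes the regeneration genes is addressed by CKO against fl/fl within each treatment. After PTX no member was called between the genotype labels. Log2 differences ran from -0.39 ± 0.35 for Lifr to 0.22 ± 0.36 for Jun, all groups overlapped (0.69% of all genes were wholly higher and 1.37% wholly lower), and edgeR called 0 members where 0% of genes were called, with 0 members at an unadjusted p under 0.05 and 0 by DESeq2 or limma-voom. Of all 14200 genes, 266 had an unadjusted edgeR p under 0.05. The 95% intervals were -1.10 to 1.13 for Gap43, -0.69 to 0.23 for Stat3, -0.65 to 0.69 for Hspb1, -1.24 to 0.79 for Atf3 and -2.28 to 2.15 for Sox11, so differences of more than 2-fold were within some of them. Within the earlier PTX date the differences of the 7 members with a fitted fold ran from -0.48 to 0.53, and within the later from -0.58 to 0.54, with 0 called.

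After vehicle, Sox11 had the largest difference by genotype label. Its 284 counts in fl/fl against 10 in CKO gave -4.33 ± 1.33 on the log2 scale, with an unadjusted p of 0.00466 and an edgeR adjusted p of 0.958. Without vehicle CKO replicate 3 the estimate was -7.06, also not called by edgeR. The groups overlapped at vehicle fl/fl replicate 1 (0.219 CPM). DESeq2 called it (-4.33, adjusted p = 0.0162), and limma-voom did not (adjusted p = 0.907). The other 6 ran from -0.49 ± 0.34 for Hspb1 to 0.35 ± 0.35 for Lifr. No member's groups were apart, where 0.81% of genes were wholly higher and 1.68% wholly lower. By edgeR 0 members were called where 0.0211% of genes were, and 1, Sox11, had an unadjusted p under 0.05, as did 655 of all 14200 genes. The later vehicle date alone gave -3.81 for Sox11 (edgeR adjusted p = 0.568), and on the earlier date it had 0 counts in both CKO libraries and was filtered out.

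The PTX differences of the genotypes were also compared directly. Sox11 gave an interaction of 4.27 ± 1.70 (unadjusted p = 0.0222, edgeR adjusted p = 1), or 6.99 without vehicle CKO replicate 3, and the others ran from -0.74 ± 0.49 for Lifr to 0.52 ± 0.49 for Hspb1. No member was called where 0.00704% of genes were. So calls made in 1 genotype, such as Lifr in fl/fl, were not shown to differ from the other. Per neuron marker count 0 members were called in any of the 3 genotype comparisons, with 0 after PTX, 1 after vehicle and 1 in the interaction at an unadjusted p under 0.05. Of all 14200 genes, 296, 569 and 427 were at that p, in the same order.

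The wider injury programme was read from lists of related genes. Among 19 tested regeneration transcription factors 1 rose and 1 fell in fl/fl, and 1 rose in CKO, where 3.2%, 1.76% and 2.22% of all genes did. On the scale of neuron marker counts 0 rose and 17 fell in each genotype, where 56.1% and 49% of all genes fell. Klf7, a Krüppel-like factor of sensory axon growth, rose from 104 ± 11.4 to 310 ± 53.8 CPM (SD, n = 4) in fl/fl (1.58 ± 0.24, adjusted p = 0.00479 by edgeR), and its CKO rise was 1.03 ± 0.24 (adjusted p = 0.0301). Klf7 per neuron marker count differed by -1.15 ± 0.57 in fl/fl (adjusted p = 0.0858) and by -1.42 ± 0.57 in CKO (adjusted p = 0.0455), a call opposite to that in CPM. The median over all genes on that scale was lower than Klf7, at -2.64 in fl/fl and -2.41 in CKO. Cebpd, a leucine zipper factor of inflammation, fell from 173 ± 34.4 to 49.8 ± 33.1 CPM in fl/fl (-1.80 ± 0.46, adjusted p = 0.0356). It was also the 1 of 16 leucine zipper partners called in fl/fl, and none was in CKO. Of the 16 partners 12 fell per neuron marker count in fl/fl and 11 in CKO, and 0 rose. List medians in fl/fl were -0.80 and -0.64, beside -0.01 for all genes.

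Of 17 tested ligands, receptors and kinases of the gp130 pathway around Lifr and Stat3, 1 rose in fl/fl and 0 in CKO. Of all genes 3.2% and 2.22% rose, and 0 genes of the list fell, where 1.76% and 0.359% of all genes did. Read per neuron marker count, 0 rose and 13 fell in fl/fl, and 10 fell in CKO, where 56.1% and 49% of all genes fell. The gene that rose was Osmr, the oncostatin M receptor, at 174 ± 63.7 CPM after PTX and 25.6 ± 19.4 after vehicle in fl/fl (2.77 ± 0.69, edgeR adjusted p = 0.0306). In CKO Osmr differed by 2.15 ± 0.68 (adjusted p = 0.0936). Per neuron marker count its differences were 0.49 ± 0.70 and -0.53 ± 0.70 (adjusted p = 0.547 and 0.515).

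The growth cone and cytoskeleton list around Gap43 had the most calls: 9 of 24 rose and 0 fell in fl/fl. In CKO 8 rose and 1 fell (Arpc1b, an actin-nucleating subunit, named after its values were seen). Of all genes 3.2% rose and 1.76% fell in fl/fl, and 2.22% rose and 0.359% fell in CKO. L1cam, an axonal adhesion molecule, went from 111 ± 27.8 to 534 ± 101 CPM in fl/fl (2.27 ± 0.27, edgeR adjusted p = 0.00126). Stmn2, a tubulin-binding growth cone protein, went from 407 ± 245 to 1938 ± 589 (2.25 ± 0.46, adjusted p = 0.0125), and Nrn1, a neurite-promoting protein, from 48.7 ± 43.5 to 463 ± 272 (3.25 ± 0.68, adjusted p = 0.0134). Tubb3, a list member that rose, is also one of the neuron markers. Per neuron marker count 0 of 24 rose and 13 fell in fl/fl, where 0.246% of all genes rose and 56.1% fell. Stmn2 differed there by 0.03 ± 0.48 (adjusted p = 0.959).

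For the 2 lists that follow, 3.2% of all genes rose in fl/fl and 2.22% in CKO, and 1.76% and 0.359% fell. Of 10 tested injury peptides and secreted factors 3 rose in fl/fl and 2 in CKO. In fl/fl Adcyap1, which encodes the neuropeptide PACAP, rose by 2.59 ± 0.42 (edgeR adjusted p = 0.00582). Bdnf, a neurotrophin, rose there by 3.06 ± 0.81 (adjusted p = 0.0392) and Tac1, the substance P gene, by 2.12 ± 0.57 (adjusted p = 0.0403). Adcyap1 and Tac1 also stand on the list of 12 nociceptor markers. That list summed to 6948 to 12550 CPM in PTX fl/fl against 651 to 2946 in vehicle fl/fl. The part of neuron share in the rise of Adcyap1 and Tac1 was not tested. Of 20 injury-linked receptors, channels and enzymes 3 rose in fl/fl and 2 in CKO, none fell, and Ngfr, the low-affinity neurotrophin receptor, rose by 2.66 ± 0.45 (adjusted p = 0.00679) and by 3.44 ± 0.47 in CKO (adjusted p = 0.00292). Ngfr and Bdnf also stand on the list of repair Schwann cell markers, where they were the 2 called of 6 tested. Olig1 and Gdnf of that list were at 0 in all groups.

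Among 11 tested chaperones related to Hspb1, 3 rose and 1 fell in fl/fl, and 3 rose in CKO. Of all genes 3.2%, 1.76% and 2.22% did. Hspb8, another small heat shock protein, rose by 2.45 ± 0.44 in fl/fl and by 2.40 ± 0.44 in CKO (edgeR adjusted p = 0.00803 and 0.0139). Cryab, the alphaB-crystallin of glia and muscle, fell from 415 ± 85.8 to 111 ± 64.9 CPM in fl/fl (-1.90 ± 0.39, adjusted p = 0.0132), while the myelinating Schwann cell list had 10 of 12 genes lower. The part of Schwann cell share in the fall of Cryab was not tested. Of 3 tested relatives of Ecel1 none was called in CPM, and Ece2 differed by 1.84 ± 0.84 in fl/fl (adjusted p = 0.235). None of the 9 relatives of Sprr1a passed the filter.

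Profiles across the 16 libraries were compared by the root mean square difference of centred log2(CPM + 1) values. Within the set, Lifr and Hspb1 were closest (0.53), followed by Stat3 and Hspb1 (0.60) and by Atf3 and Jun (0.61), and Atf3 and Sox11 were farthest apart (2.39). Among 9443 genes with a mean of at least 10 CPM, the nearest to Lifr were Nol3 (0.27) and Acly (0.29), to Hspb1 Sepw1 (0.29) and Tmsb10 (0.29), and to Stat3 Rbms1 (0.22) and Ap1m1 (0.23). Jun lay nearest to Srrm1 (0.27) and Tacc1 (0.28), and Atf3 to Nr3c1, the glucocorticoid receptor, and Adamts1 (both 0.52). Gap43 lay nearest to Arhgap28 (0.50) and Ppp1r1c (0.51), Sox11 to Grwd1 (0.74) and Syt4 (0.75), and Ecel1 to Stx2 (0.49) and Atg10 (0.53). The median gene lay 1.02 from Stat3 and 1.90 from Sox11, and all profiles share the treatment, date and depth of the same libraries.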

How the data were processed

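RNA was measured in 16 libraries, 4 in each group, by stranded poly(A) sequencing with 50-base single reads from about 500 ng of RNA, per the labels' protocols. Per the submitters' processing notes, bcl2fastq, TopHat2, HTSeq and the build mm9 were used, with no versions. The files hold raw counts for each gene, as deposited and not normalized. The strand setting of the counting is not given in the sources used here. Summary lines (5 per file) were left out; 32.9 to 43.5% of alignments fell in genes.

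The 9 members, the related lists and the neuron markers were chosen with earlier results of these data known. Genes passing filterByExpr (14200) were fitted in R 4.3.3 with edgeR 4.0.16 (robust quasi-likelihood F test, two-sided, 1 model of 4 groups, 12 residual degrees of freedom), once with TMM scaling and once with each library scaled by its summed neuron marker counts. The Benjamini-Hochberg threshold was 0.05. Intervals (95%) are from the standard error with the multiplier of a normal distribution, so they are somewhat narrower than the F test implies. A group at 0 counts was set to a floor of 3 counts over the group. Of each list up to 4 called genes with the smallest adjusted p were eligible to be named, or the 2 most abundant where none was called, and the text gives part of them. For each member the 2 nearest profiles are named, leaving out clone and predicted-gene symbols. The RefSeq tables (GRCm38.p6) served for names and promoter windows only; 20043 symbols were current in them and 3 list symbols matched by an older name.

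Libraries with the same replicate number deviated together only in CKO against fl/fl under PTX (r 0.43, 0.48, 0.47 and 0.23); the numbers come from the titles. The blocked fit called 0 members there too. Alternatives were other scalings and filters, the block, the compared groups alone, DESeq2 1.42.0, limma-voom 3.58.1, other neuron denominators, each title date, and leaving out each library. On simulated data edgeR recovered 0% of 2-fold, 32% of 4-fold, 68% of 8-fold and 86% of 16-fold changes for PTX in fl/fl, 50 genes each; of 4-fold changes it recovered 18% for PTX in CKO and, per neuron marker count, 28% for PTX in fl/fl, 4% for PTX in CKO and 2% for genotype under PTX. The recovery of single members was not tested. In the measured libraries Stat3 was called in fl/fl at a log2 fold change of 1.00 ± 0.24 (1.99-fold, edgeR adjusted p = 0.0246). No 2 libraries were the same within counting noise (lowest chi-square per degree of freedom 20.3).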

Additional observations from a re-analysis of the deposited data

Results flagged for a closer look

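In 13 of the 66 sets of 4 libraries with any count (a gene, a group and a scale), 1 library lay far from the other 3. Chance flags about 1 in 20 sets, and the CPM and per-neuron values of a gene share their counts. Of the 13, 8 are of Sprr1a or Sox11.

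Sprr1a was flagged in PTX fl/fl replicate 2 (0.264 CPM, 0.0176 per 1000 neuron marker counts), PTX CKO replicate 2 (14.2 CPM, 0.881 per 1000) and vehicle CKO replicate 4 (2.92 CPM, 1.01 per 1000), each the 1 library holding all or nearly all of its group's counts. Sox11 was flagged in vehicle CKO replicate 3 (1.15 CPM, 0.584 per 1000), where the other 3 were at or near 0. Among abundant genes, Atf3 was high in vehicle fl/fl replicate 4 (295 CPM) and Gap43 low in vehicle CKO replicate 1 (26.3 CPM). Per 1000 neuron marker counts, Gap43 was high in PTX CKO replicate 4 (33.9), Lifr in vehicle fl/fl replicate 2 (228) and Hspb1 in vehicle CKO replicate 2 (26.7). The last 2 are the libraries with the fewest neuron markers of their groups (873 and 928 CPM).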

How the results depend on the processing

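Across 70 single-gene results and 1889 values under the alternatives, 1685 kept direction and side of the threshold, 90 uncalled ones changed sign within 1 standard error, 70 lost the threshold, 31 gained it and 13 reversed, none of them past the threshold. Members called in fl/fl (4) became 2 with the replicate block, 8 with limma-voom (6 higher, Atf3 and Jun lower), 1 with only the groups compared, 0 without the earlier PTX date, 0 without the earlier vehicle date, 2 without the later vehicle date, and 1 to 4 without any 1 library. In CKO (2) they became 1 with the replicate block, 4 with DESeq2, 7 with limma-voom (5 higher, Atf3 and Jun lower), 1 with only the groups compared, 0 without the earlier and 6 without the later PTX date (4 higher, Atf3 and Jun lower), 1 without the earlier vehicle date, and 0 to 4 without any 1 library. Under vehicle, CKO against fl/fl gave 1 with DESeq2 in place of 0. All genes called were 5283 in fl/fl and 2686 in CKO with limma-voom, and 1331 in CKO with DESeq2. The main fit called 704 in fl/fl and 366 in CKO. Per neuron marker count, the 3 in fl/fl became 0 without the earlier PTX date, 0 without the earlier vehicle date, and the 3 in CKO became 0 without the earlier PTX date and 5 without the later vehicle date or with the nociceptor marker sum (4 lower, Sox11 higher). Leaving out either date of a treatment leaves 2 libraries in an arm, and the cause of these changes was not tested.

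Reversed log2 values were Hspb1 by genotype under PTX without the earlier PTX date (-0.58) and on the later alone (-0.58), its interaction without that date (-0.091), Jun (-0.22) and Lifr (-0.27) by genotype under vehicle without the earlier vehicle date, Lifr on the later vehicle date alone (-0.17), Stat3 there on the earlier date alone (-0.066) and without the later (-0.11), and Lifr per neuron marker count in fl/fl without the earlier vehicle date (0.24). Without 1 library, Jun (0.22) ran from -0.15 to 0.49 and Atf3 per neuron marker count (0.21) from -0.67 to 0.58 by genotype under PTX, Lifr by genotype under vehicle (0.35) from -0.017 to 0.55, and Lifr per neuron marker count for PTX in fl/fl (-0.66) from -0.88 to 0.081.

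All genes called numbered 704 in fl/fl and 366 in CKO. They became 361 and 126 with the replicate block, 1517 and 1331 with DESeq2, 5283 and 2686 with limma-voom, 4 and 0 without the earlier and 1923 and 2077 without the later PTX date, and 177 to 845 and 30 to 549 without any 1 library. In fl/fl they were 47 without the earlier vehicle date, and in CKO 159 with only the groups compared. Per neuron marker count, 7999 and 7062 became 4 and 0 without the earlier PTX date, 1609 and 4391 without the earlier vehicle date, and 4620 to 8349 and 3829 to 7521 without any 1 library. Genotype counts (0 under PTX, 3 under vehicle, 1 for the interaction) ranged over 0 to 14, 0 to 83 and 0 to 50. In the other pairings same-numbered libraries did not all deviate together, though those of the vehicle groups also share a title date: r was -0.20 to -0.17 for PTX in fl/fl, -0.01 to 0.11 in CKO and -0.05 to 0.02 for genotype under vehicle, where 0, 3 and 0 of 8 libraries correlated best with their own number. With the replicate block, Stat3 (1.01, adjusted p = 0.0576) and Hspb1 (1.33, 0.0759) in fl/fl and Sox11 in CKO (6.47, 0.0612) lost their calls in CPM, and Stat3 lost it per neuron marker count in fl/fl (-1.58, 0.0820) and CKO (-1.74, 0.0597). Sox11 gained one there (4.42, 0.0493), and no other member's call changed. Depth limits Sprr1a, Ecel1 and Sox11.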
